A study of Mus musculus with 36 samples.

Results

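The ventricles of the mouse heart at embryonic day E16.5 were set against ventricles at E13.5, with 3 arrays of each day, 6 of the 36 arrays of a series on heart development in C57BL/6 embryos. The arrays were chosen by their titles, which give the day, and by the source field, which names both ventricles of the heart. Embryos came from timed matings, hearts were dissected, and ventricles were parted from atria before RNA was taken. No mutant, transgene or treatment is named for any group. Affymetrix mouse arrays measured 45101 probe sets, groups of short probes for 1 transcript, as fluorescence intensities. The E16.5 arrays carry day 15.5 in the description field, and the day of the title was used here. Whether the 3 arrays of a day hold separate embryos or pools is not stated, so the spread between arrays of a group may be technical. P-values use this spread pooled over all 36 arrays of the series, not that of the 6 compared arrays alone.

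Between these days the ventricular septum of the mouse closes and the wall thickens, with a growing compact layer under the trabeculae. Cardiomyocytes still divide, but they begin to take on mature features: ordered M-bands in the sarcomere, repolarising potassium currents, creatine kinase in mitochondria and the enzymes that burn fatty acids. Over the same days, blood in the heart passes from primitive red cells of the yolk sac, which carry embryonic globins, to definitive red cells from the fetal liver.

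The embryonic globins Hba-x and Hbb-y, the slow troponin T Tnnt1, smooth muscle calponin, the growth factor midkine and the Wnt antagonist Sfrp1 were lower at E16.5. The potassium channel subunit Kcnip2, the M-band gene Myom2, the mitochondrial creatine kinase Ckmt2 and 3 of 30 genes of fatty acid uptake and oxidation, Cd36, Ppara and Mlycd, were higher. The main myosins, actins and troponins of the cardiomyocyte showed no detected change, though the estimates for Myh7, Myl2 and Myl3 were imprecise. Of 12973 genes tested with limma, 159 were higher at E16.5 (1.23%) and 272 were lower (2.1%), at a Benjamini-Hochberg adjusted p under 0.05. That is 431 genes, or 3.32%. By probe set, 346 of 27256 were higher (1.27%) and 466 lower (1.71%), together 2.98%. Among the called genes, 36 were higher and 52 lower by at least 2 fold. The median difference of all genes was 0.01 on the log2 scale. All differences given are E16.5 minus E13.5 on the scale of log2(intensity + 17), which understates the change of dim genes, and ± gives the fit's standard error (SE).

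All 6 arrays had the same trimmed mean intensity, and arrays of a day correlated at 0.972 to 0.976 at E16.5 and 0.977 to 0.981 at E13.5. Heart muscle was plain on all arrays: the 12 cardiomyocyte markers summed to between 129820.0 and 149984 at E16.5 and between 125890.0 and 142417 at E13.5. None of the 14 ventricular markers was called, but the SE was wide for some, at 0.82 for Irx4 and 0.55 for Hey2. The lack of a call therefore does not show that these markers were unchanged. A pair of arrays stood apart. The first E13.5 array was the one nearest to the E16.5 mean in 329 of the 431 called genes and in 6359 of all 12973 genes. The second E16.5 array stood out for liver genes, with Alb, which encodes albumin, at 216, 4237 and 366 at E16.5 and 101, 87.4 and 316 at E13.5. The 7 liver genes tested summed to between 628 and 11611 at E16.5 and between 423 and 3310.0 at E13.5.

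The calls rested on few arrays, as the plot of genes called with arrays left out shows. Without the third E16.5 array 2 genes were higher and 14 lower, and without the second E13.5 array 3 were higher and 11 lower. Without the first E13.5 array, the counts were 287 higher and 363 lower. Of the 431 calls, 12 held whichever of the 6 arrays was left out. These were Kcnip2, which was higher, and 11 genes that were lower: Hba-x, Hbb-y, Tnnt1, Cnn1, Mdk, Sfrp1, Gramd1c, Plcb3, B3galnt1, Orc6 and Ttc13. The other 419 each lost the call without the third E16.5 array or the second E13.5 array, and every call below that is not of these 12 shares that limit. Without the second E16.5 array, the one high in liver genes, 73 genes were higher and 162 lower, and 216 of the 431 calls held. Without the first E16.5 array the counts were 71 and 143, and without the third E13.5 array 27 and 52. Without both the first E13.5 array and the second E16.5 array, 154 genes were higher and 273 lower, with 301 of the 431 calls among them. The calls also depended on which arrays gave the pooled spread. With only the 30 arrays of ventricles and atria, 62 genes were higher and 115 lower, and 176 calls held. With only the 15 ventricular arrays the counts were 105 and 156, and 193 calls held. With only the 6 compared arrays they were 172 and 270, and 245 calls held. When each array was centred on its median, the median of all genes moved to -0.15, and 48 genes were higher and 594 lower, so that 7.48% of called genes were higher in place of 36.9%. Every list of genes below whose median lay between 0 and 0.15 had a median under 0 with that centring. The basement membrane and compact wall lists, at -0.01, turned to 0.03 and 0.02 under quantile normalization, and the neural list turned to -0.01.

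**Figure D1:**
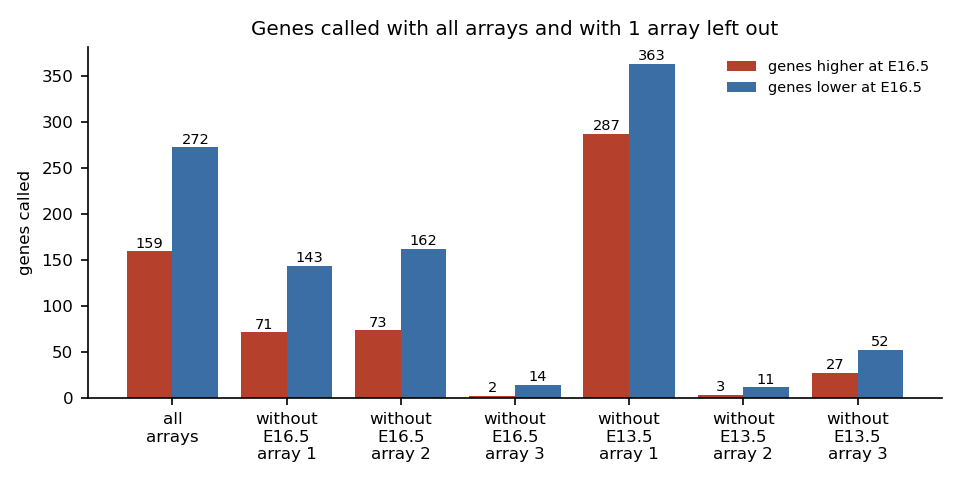
Number of genes (y axis) called higher at E16.5 (red) and lower at E16.5 (blue) with all arrays and with each of the 6 ventricular arrays left out in turn (x axis). The counts shrink to 2 and 14 without the third E16.5 array and to 3 and 11 without the second E13.5 array, and grow to 287 and 363 without the first E13.5 array.

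Embryonic globins were far lower at E16.5, and Hba-x had the largest fall of all called genes. The embryonic globins are the zeta chain Hba-x and the beta-type chains Hbb-y and Hbb-bh1, made by primitive red cells. The 250 bases before the start of Hba-x and of Hbb-y, the pair whose calls held, are printed from the RefSeq table on build GRCm38.p6, at chr11:32276350-32276599 on the plus strand and chr7:103853208-103853457 on the minus strand. Capitals mark 3 motifs searched on both strands: TGATAA, the core bound by GATA factors, CCACCC, the CACC box read by Krüppel-like factors, and TATAAA, the TATA box.
Hba-x promoter: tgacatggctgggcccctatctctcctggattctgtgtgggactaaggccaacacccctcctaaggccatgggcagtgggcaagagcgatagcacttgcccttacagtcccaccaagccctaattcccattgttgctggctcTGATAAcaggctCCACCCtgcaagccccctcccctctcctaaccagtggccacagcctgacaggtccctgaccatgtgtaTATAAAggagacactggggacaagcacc
Hbb-y promoter: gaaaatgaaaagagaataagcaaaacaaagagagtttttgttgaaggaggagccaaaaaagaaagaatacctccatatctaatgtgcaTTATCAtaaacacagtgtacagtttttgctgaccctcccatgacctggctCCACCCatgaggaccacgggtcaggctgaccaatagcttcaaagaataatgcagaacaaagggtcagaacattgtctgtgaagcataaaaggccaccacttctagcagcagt
Hba-x held TGATAA 108 to 103 bases before its start, CCACCC 96 to 91 before it and TATAAA 28 to 23 before it. Hbb-y held TGATAA on the other strand, 162 to 157 bases before its start, and CCACCC 112 to 107 before it. TGATAA was found in 7.94% of 32851 promoters of the same length, CCACCC in 28.1% and TATAAA in 12.4%. A match describes the letters and shows no binding.

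Hba-x read 673, 823 and 243 on the E16.5 arrays, against 3221, 12143 and 8948 at E13.5. The E16.5 arrays all lay below the E13.5 arrays, and the first E13.5 array was the lowest of its day. Hba-x fell 13.3 fold (log2 -3.73 ± 0.50, adjusted p = 0.000249 by limma). Hbb-y gave 4355, 3251 and 1187 at E16.5, against 10965, 13618 and 12522 at E13.5. It fell 4.78 fold, with groups that did not overlap (log2 -2.26 ± 0.36, adjusted p = 0.0017). Across all genes, the groups did not overlap in 33.9%. Hbb-bh1 was dim at E16.5, at 7.60, 13.9 and 7.90, against 39.4, 3526 and 1151 at E13.5, and just missed the threshold (log2 -4.53 ± 1.30, adjusted p = 0.0506). It passed without the first E13.5 array (adjusted p = 0.00645). Because whole ventricles with their blood were measured, fewer cells of a kind and less RNA in each cell cannot be told apart, here and in what follows.

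The adult erythroid genes that could be tested showed no detected change. None of the 10 tested was called, and their median difference was -0.01. The adult globins Hbb-b1 and Hba-a1 were among 5 of the 15 listed genes that were not tested. How definitive red cells changed is therefore not settled by these genes. Hbb-b2, an adult beta globin whose probes may share signal with its close copies, read 1010.3, 1355 and 738 at E16.5 and 920.0, 832 and 767 at E13.5. Alas2, the first enzyme of heme synthesis in red cells, read 3033, 4952 and 1778 at E16.5 and 2832, 2834 and 1522 at E13.5, with groups that overlapped. The summed level of the 10 genes ranged from 8195 to 14004 at E16.5 and from 8471 to 10019 at E13.5. The 3 embryonic globins summed to between 1438 and 5036 at E16.5 and between 14225 and 29288 at E13.5.

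In the sarcomere, 1 of 31 tested genes rose and 1 fell, while 1.23% of all genes rose and 2.1% fell. The median difference was 0.04. Myom2 encodes the M-protein that links thick filaments at the M-band. It read 1611, 1875 and 3595 at E16.5, against 1057, 105 and 225 at E13.5. The 3 E16.5 arrays were higher, but the first E13.5 array stood far above its sister arrays. Myom2 rose 7.06 fold (log2 2.82 ± 0.66, adjusted p = 0.0204). The adjusted p was 0.00199 without the first E13.5 array and 0.232 without the second. Its partners at the M-band were not called: Myom1 had a difference of 0.01 and titin, Ttn, of 0.01.

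Tnnt1, the slow skeletal troponin T that the early heart also makes, moved the other way. It read 1870.4, 1475 and 1182 at E16.5, against 3760.2, 6005 and 5781 at E13.5. Every E16.5 array lay below every E13.5 array, a fall of 3.39 fold (log2 -1.76 ± 0.28, adjusted p = 0.00125). The cardiac troponin T gene Tnnt2 had a difference of 0.01, adjusted p = 0.975.

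The other contractile isoforms showed no detected shift. Myh6, the heavy alpha chain that dominates the adult mouse heart, had a difference of 0.04 ± 0.15. Myh7, the fetal beta chain, had 0.06 ± 0.57. The troponin I pair, which switches from the slow to the cardiac form around birth, had 0.06, adjusted p = 0.871, for Tnni1 and 0.22, adjusted p = 0.408, for Tnni3. Cardiac actin Actc1 had 0.04 and skeletal actin Acta1 -0.47. The ventricular light chains Myl2 and Myl3 had -0.05 ± 0.77 and 0.08 ± 0.43. The atrial chains Myl7 and Myl4 had -0.64, adjusted p = 0.0898, and -0.29, adjusted p = 0.253. Of these, Myh6, Myh7, Tnni1, Actc1 and Myl3 had a difference below 0 under median centring. With the wide SE of Myh7, Myl2 and Myl3, a change of moderate size in them could have gone undetected. Myl3 was the brightest probe set on all 3 E16.5 arrays, at 15430.5, 16003 and 17387. No member of the lists for atrial genes (13 tested, median -0.29), intercalated disc (17, median 0.08) or compact wall growth (16, median -0.01) was called. The atrial genes summed to between 19910.0 and 21350.0 at E16.5 and between 26220.0 and 28268 at E13.5, and their part in the falls was not tested.

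**Figure D2:**
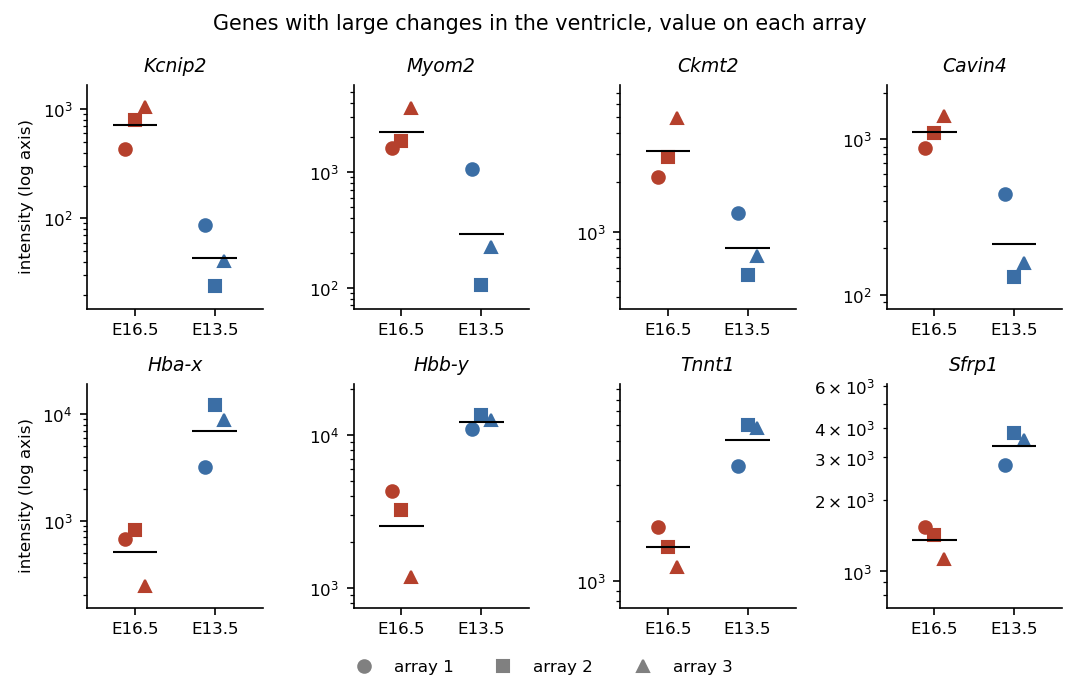
Intensity on each array (y axis, log scale) for 4 genes that rose and 4 that fell, at E16.5 (red) and E13.5 (blue). Symbols mark the array number and lines the geometric mean. Kcnip2 and the 4 lower genes keep their calls with any array left out, while the first E13.5 array lies nearest to E16.5 for Myom2, Ckmt2 and Cavin4.

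Kcnip2 had the largest rise of all called genes. It encodes KChIP2, the subunit that brings Kv4 channels to the membrane and shapes the transient outward potassium current. Kcnip2 read 435, 796 and 1054 at E16.5, against 87.1, 23.8 and 40.4 at E13.5. Every E16.5 array lay far above every E13.5 array, and the rise was 11.7 fold (log2 3.55 ± 0.58, adjusted p = 0.00186). The highest adjusted p with an array left out was 0.0438. The Kv4 pore genes were not called, with differences of -0.05 for Kcnd2 and 0.17 for Kcnd3.

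Of the 16 potassium, sodium and pacemaker channel genes tested, 2 rose and none fell, while 1.23% of all genes rose. Besides Kcnip2, Kcnj12, an inward rectifier that holds the resting potential, read 290.1, 252 and 345 at E16.5 and 191, 152 and 177 at E13.5. Its groups did not overlap, and it rose 1.64 fold (log2 0.71 ± 0.18, adjusted p = 0.0294). Kcnq1, the pore of the slow delayed rectifier, missed the threshold at log2 0.75 ± 0.24, adjusted p = 0.0754. In the calcium list, 1 of 21 genes rose, and the median of 0.09 turned to -0.07 under median centring. Ryr2, the release channel of the sarcoplasmic reticulum, read 3872, 3695 and 4038 at E16.5 and 3229.7, 2419 and 2599 at E13.5, higher on all 3 E16.5 arrays (log2 0.50 ± 0.12, adjusted p = 0.0264). The calcium pump Atp2a2 had a difference of 0.06, adjusted p = 0.858, and the store protein Casq2 one of 0.50, adjusted p = 0.356.

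Genes of energy supply mostly had small positive differences, and few single genes passed the threshold. Of 30 genes of fatty acid uptake and oxidation, 3 rose, against 1.23% of all genes, and none fell. A positive difference was found in 27 of the 30, against 50.3% of all genes. Their median was 0.28, and 0.12 under median centring. Cd36, which carries fatty acids across the cell membrane, read 4331, 5073 and 5654 at E16.5 and 3588, 1960.1 and 2583 at E13.5. Every E16.5 array was above every E13.5 array (log2 0.92 ± 0.24, adjusted p = 0.0347). Ppara, the nuclear receptor that drives fatty acid oxidation genes, gave 583, 481 and 499 at E16.5, against 309.5, 90.2 and 277 at E13.5. It rose 2.47 fold, with the second E13.5 array the lowest (log2 1.30 ± 0.34, adjusted p = 0.0369). Mlycd, which removes the malonyl-CoA that blocks entry of fatty acids into mitochondria, rose by a log2 of 0.53, adjusted p = 0.0358. Enzymes of the oxidation spiral were close to the threshold but not past it: Acadvl had 0.48, adjusted p = 0.0905, and Hadha 0.30, adjusted p = 0.0961. Without the second or the third E16.5 array, or without the second or the third E13.5 array, 0 of the 30 genes were called. With array weights, 14 were.

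In the mitochondrial chain the differences were smaller. Of 39 respiratory chain and TCA cycle genes, 2 rose, against 1.23% of all genes. A positive difference was found in 38, against 50.3% of all genes. The median of 0.14 turned to -0.02 under median centring. Cox7a1, the heart and muscle form of a cytochrome oxidase subunit, read 4165, 4413 and 5818 at E16.5 and 3622, 2511 and 3017 at E13.5, with no overlap (log2 0.65 ± 0.17, adjusted p = 0.0333). Ogdh, a subunit of the oxoglutarate dehydrogenase of the TCA cycle, rose by a log2 of 0.35, adjusted p = 0.0488. Cox8b, another muscle form, had a larger difference but also a larger spread: 4192, 4767 and 6780.4 at E16.5 and 3699, 1323 and 2028 at E13.5 (log2 1.25 ± 0.42, adjusted p = 0.0875). The first E13.5 array brought the groups near each other. Cox6a2, the third muscle form, had 0.43, adjusted p = 0.159. No member was called without the second or the third E16.5 array, or without the second or the third E13.5 array, and 10 were under quantile normalization.

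Ckmt2, the creatine kinase of muscle mitochondria, passes energy from ATP to phosphocreatine. It was the 1 of 10 energy transfer genes to rise, while 1.23% of all genes rose. It read 2157, 2868 and 4944 at E16.5 and 1297, 543 and 709 at E13.5. The E16.5 arrays were all higher, by 3.88 fold (log2 1.95 ± 0.39, adjusted p = 0.00851). The p was 0.122 without the second E13.5 array. Its cytosolic partner Ckm read 12299, 12489.8 and 14075 at E16.5 and 11546, 3951 and 6977 at E13.5. The first E13.5 array came close to the E16.5 level, and no change was detected (log2 0.92 ± 0.76, adjusted p = 0.507). Myoglobin, Mb, the oxygen store of muscle, had a difference of 0.19, adjusted p = 0.905.

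Among 17 regulators of mitochondria and metabolism, Ppara was the 1 called, while 3.32% of all genes were called. Perm1, a muscle partner of the PGC-1 and ERR factors, had 1.31, adjusted p = 0.0706, the factor Klf15 1.56, adjusted p = 0.104, and Esrra, an ERR receptor, 0.71, adjusted p = 0.115. No change was detected in the 26 genes of glucose transport, glycolysis and glycogen (0 called, median 0.09, and -0.06 under median centring). Slc2a1, the fetal glucose carrier, came nearest to a fall, at log2 -0.54 ± 0.16, adjusted p = 0.0552. Of 17 hypoxia genes 1 fell, while 2.1% of all genes fell. Hif1a, the oxygen-regulated factor itself, read 4238, 4174 and 3799.8 at E16.5 and 4956, 6137 and 5903 at E13.5. It was lower on every E16.5 array (log2 -0.47 ± 0.10, adjusted p = 0.0153).

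**Figure D3:**
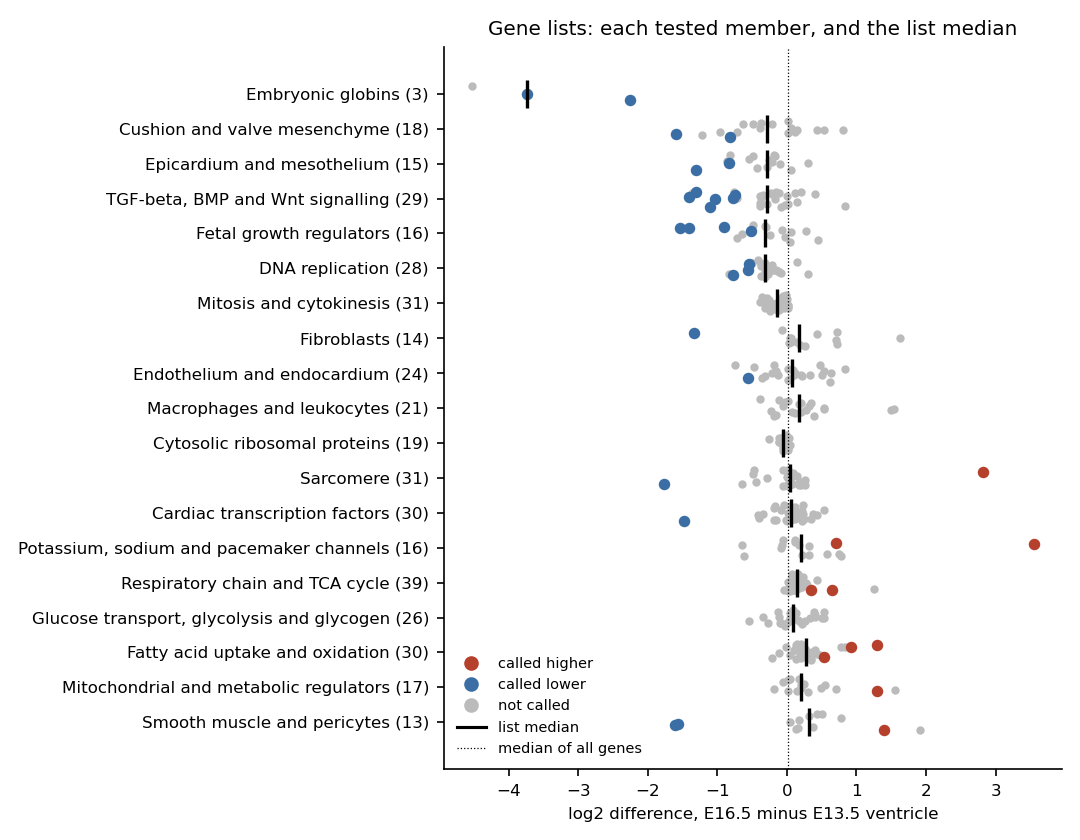
Log2 difference between E16.5 and E13.5 ventricles (x axis) for each tested member of 19 gene lists (y axis, number of tested members in brackets). Red and blue points are members called higher and lower, grey points those not called, black bars the list median and the dotted line the median of all genes. Embryonic globins lie far to the left, at a median of -3.73, and the fatty acid list lies to the right of the line, at 0.28.

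A few called genes outside the lists act on lipids. They were picked because they were called, so no count of them can be read against the share of all genes. Gpihbp1, which holds lipoprotein lipase on the capillary wall, had a difference of 1.23, adjusted p = 0.0441. Mgll, which frees fatty acids from monoglycerides, had 1.30, adjusted p = 0.00919, and Dgat2, which builds triglycerides, 1.05, adjusted p = 0.0118. Plin4, a lipid droplet coat protein, was among the 15 largest rises: it read 262, 259 and 485 at E16.5 and 104, 81.2 and 22.0 at E13.5, with no overlap (log2 2.13 ± 0.58, adjusted p = 0.0421). Fat tissue near the heart also expresses such genes. The 4 brown fat genes tested summed to between 9655 and 11750.0 at E16.5 and between 3741 and 8704 at E13.5, with none called. Most of that sum was Fabp4, which capillaries also express, at 8442, 8552 and 10378 at E16.5 and 7517, 2894 and 5941 at E13.5. Cidea, a lipid droplet protein of brown fat, read 368, 297 and 468 at E16.5 and 294, 75.2 and 55.2 at E13.5, and Ucp1, Adipoq, Plin1 and Pparg did not pass the filter on low values or had no probe set of their own. Their part in the rises was not tested.

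The rest of the 15 largest rises held genes of muscle membrane and of less known roles in the heart. All 15 were chosen from genes without overlap. Cavin4, a coat protein of caveolae in muscle, read 886, 1098 and 1410.2 at E16.5, against 446, 130.3 and 161 at E13.5. The groups were apart, with the first E13.5 array the highest of its day, and the rise was 4.91 fold (log2 2.30 ± 0.49, adjusted p = 0.0124). Adhfe1, a mitochondrial transhydrogenase, read 985, 1380.3 and 1965 at E16.5 and 598, 153 and 259.6 at E13.5 and rose 4.58 fold (log2 2.19 ± 0.41, adjusted p = 0.00645). Rtl3, a gene derived from a retrotransposon, read 388, 497 and 565 at E16.5 and 266, 29.4 and 87.0 at E13.5 (log2 2.16 ± 0.40, adjusted p = 0.00644). In all 3 genes the second E13.5 array was the lowest. Relt, a receptor of the TNF family, had tight groups, at 698, 722 and 684 at E16.5 and 265, 279 and 233 at E13.5 (log2 1.38 ± 0.27, adjusted p = 0.00851). The others of the 15 were Steap4 (2.06), a metalloreductase, the kinesin Kif26a (1.92), Nmrk2 (1.72), a muscle kinase for nicotinamide riboside, Ddo (1.69), Abca8a (1.61), a lipid transporter, and Asb15 (1.49), with adjusted p between 0.0177 and 0.0462. Ankrd23, a titin-binding stress gene of muscle, was the 1 higher member of 9 natriuretic and stress genes, at 90.0, 173 and 263 at E16.5 and 84.7, 38.7 and 41.2 at E13.5 (log2 1.37 ± 0.34, adjusted p = 0.0279). The 1 lower member was Npr3, described with the endothelium. Over all genes 1.23% rose and 2.1% fell. The natriuretic peptides had differences of -0.29 for Nppa and 0.05 for Nppb, whose sign turned under median centring.

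Some growth regulators of the fetus were lower. Of 16 tested, 4 fell and none rose, with a median of -0.31, while 2.1% of all genes fell. Hmga2, a chromatin protein of growing fetal tissue, read 964, 868 and 766 at E16.5 and 1823, 3502 and 2505 at E13.5. The groups did not overlap, and the fall was 2.89 fold (log2 -1.53 ± 0.41, adjusted p = 0.0405). Cdkn1c, the imprinted inhibitor of cell division p57, gave 4166, 4623 and 3877 at E16.5, against 6361, 9996 and 7636 at E13.5, lower on all 3 E16.5 arrays (log2 -0.90 ± 0.18, adjusted p = 0.0101). The IGF-binding proteins Igfbp2 (-1.41, adjusted p = 0.0124) and Igfbp5 (-0.51, adjusted p = 0.00574) also fell. No change was detected in the growth factor that they bind: Igf2 had a difference of -0.02, adjusted p = 0.959, and the mRNA-binding protein Igf2bp3 one of 0.27, adjusted p = 0.171, which turned below 0 when a gene's probe sets were averaged. Without the third E16.5 array or without the second E13.5 array, 0 of the 16 were called. Mdk, the heparin-binding growth factor midkine, was not on the list, and its fall held with any array left out: 1468, 1526 and 1148 at E16.5 and 2614, 5105 and 4334 at E13.5 (log2 -1.49 ± 0.21, adjusted p = 0.00037).

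A few genes of DNA replication were lower. Of 28 tested, 3 fell, against 2.1% of all genes, none rose and 26 had a negative difference, with a median of -0.32. A positive difference was found in 7.14%, against 50.3% of all genes. Without the third E16.5 array, or without the second or the third E13.5 array, 0 were called. Mcm3, a subunit of the replicative helicase, read 2392, 2349.6 and 2049 at E16.5 and 2869.6, 3797 and 3325 at E13.5. Its groups did not overlap (log2 -0.55 ± 0.13, adjusted p = 0.0183). The helicase partner Gins2 fell by a log2 of 0.77 (adjusted p = 0.0194) and the clamp loader Rfc5 by 0.56 (adjusted p = 0.0306). Orc6, a subunit of the origin recognition complex that was not on the list, fell with any array left out, at 549, 612 and 522 at E16.5 and 836, 953 and 972 at E13.5 (log2 -0.70 ± 0.10, adjusted p = 0.000447). Of 17 G1 genes, Cdkn1c and Cdk4 fell. Cdk4, the kinase of the D cyclins, read 2747, 2711 and 2699 at E16.5 and 3496, 4025 and 3825 at E13.5 (log2 -0.47 ± 0.09, adjusted p = 0.00877).

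Mitosis genes showed no call. All 31 had a difference between -0.38 and 0.02, with a median of -0.14. Mki67, which marks cycling cells, read 3069, 2898 and 2903 at E16.5 and 3966, 3826 and 3747 at E13.5. Its E16.5 arrays were lower, without overlap, but the difference did not pass (log2 -0.38 ± 0.21, adjusted p = 0.29). The 19 ribosomal protein genes, none of them called, had a median of -0.06.

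Signals of the TGF-beta, BMP and Wnt pathways were the pathway list with the most calls: 6 of 29 fell, none rose, and the median was -0.29, while 2.1% of all genes fell. Sfrp1, a secreted Wnt antagonist, read 1539.7, 1415 and 1126 at E16.5, against 2789, 3814 and 3556 at E13.5. The groups lay far apart for their spread, a fall of 2.47 fold (log2 -1.30 ± 0.17, adjusted p = 0.000133). Of the 6, Sfrp1 alone kept its call without the third E16.5 array and without the second E13.5 array. Tgfbi, a matrix protein induced by TGF-beta, read 534, 586 and 568 at E16.5, against 1051, 1712 and 1945 at E13.5. The E16.5 arrays were close to each other and all lower (log2 -1.41 ± 0.29, adjusted p = 0.00983). The ligands Wnt5a, of the non-canonical Wnt path, and Tgfb2, which acts in cushion formation, had -1.10, adjusted p = 0.0153, and -0.77, adjusted p = 0.0412. Dkk3, a Dickkopf family protein, had -1.03, adjusted p = 0.0296, and Id2, a BMP target that blocks bHLH factors, -0.74, adjusted p = 0.0124. The BMP ligand Bmp2 had a difference of -1.36, adjusted p = 0.0744, which did not pass.

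Among genes of cushion and valve mesenchyme, 2 of 18 fell and none rose, with a median of -0.29, while 2.1% of all genes fell. Prrx2, a homeobox gene of mesenchyme, read 271, 269 and 192 at E16.5 and 475, 1040.1 and 909 at E13.5. Every E16.5 array lay below every E13.5 array (log2 -1.60 ± 0.28, adjusted p = 0.00342). Foxc2, a forkhead factor of the outflow tract and vessels, had -0.82, adjusted p = 0.0173, while Sox9 had 0.01 and Msx1 0.44. The 18 genes summed to between 7260.0 and 8616 at E16.5 and between 10526 and 11726 at E13.5, without overlap. Of 30 cardiac transcription factors 1 was called, against 3.32% of all genes. This was Gata5, a GATA factor of endocardium and epicardium. It read 51.5, 117 and 85.3 at E16.5, against 199, 329 and 258 at E13.5, without overlap (log2 -1.48 ± 0.27, adjusted p = 0.00491). Gata4 and Gata6, its relatives, had 0.13 and 0.37.

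A pair of keratins of the epicardium, Krt18 and Krt19, were lower. Of 15 epicardial and mesothelial genes, these 2 fell, against 2.1% of all genes, 13 had a negative difference, and the median was -0.28. A positive difference was found in 13.3% of the list, against 50.3% of all genes. The 15 genes summed to 10005 to 10745 at E16.5 and 11420.0 to 14040.0 at E13.5. Krt19 read 258, 273 and 224 at E16.5 and 334, 887 and 909 at E13.5, with the first E13.5 array close to the E16.5 arrays (log2 -1.31 ± 0.31, adjusted p = 0.0201). Krt18 had -0.83, adjusted p = 0.0325, and Krt8, the keratin that pairs with Krt18, was not called, at -0.18, adjusted p = 0.699. The epicardial factor Wt1 had -0.28, adjusted p = 0.3, and the uroplakin Upk3b -0.82, adjusted p = 0.0565. Krt19 is also on the foregut and lung list, where it was the 1 of 9 called. Summed levels of that list overlapped, at 2328 to 2649 for E16.5 and 1935 to 3167 for E13.5.

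Genes of smooth muscle and pericytes mostly had positive differences, with 2 exceptions, of which Cnn1 alone kept its call with any array left out. Of 13 tested, 11 had a positive difference, 1 of them called, and the 2 with a negative difference were called lower. The median was 0.32. Of all genes, 50.3% had a positive difference, 1.23% rose and 2.1% fell. Cnn1, smooth muscle calponin, which embryonic cardiomyocytes also express, read 1074, 876 and 584 at E16.5, against 1888, 3168 and 2755 at E13.5. It fell 3.06 fold, with no overlap (log2 -1.61 ± 0.24, adjusted p = 0.000711). Tagln, the actin-binding protein SM22, gave 554, 500.4 and 398 at E16.5 and 648, 2904 and 1607 at E13.5. Its first E13.5 array lay near the E16.5 level, and it passed narrowly (log2 -1.56 ± 0.44, adjusted p = 0.0484). Smooth muscle actin Acta2 had a difference of 0.04. The pericyte marker Higd1b rose to 165, 208 and 235 at E16.5, against 86.9, 60.7 and 54.7 at E13.5 (log2 1.39 ± 0.37, adjusted p = 0.0367). Rgs5, another pericyte marker, read 2518, 3049.7 and 2825 at E16.5 and 1949, 276 and 701 at E13.5, with a wide spread at E13.5, and did not pass (log2 1.91 ± 0.64, adjusted p = 0.0885).

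Of 14 fibroblast genes, 12 had a positive difference, against 50.3% of all genes. The list median of 0.17 was 0.01 under median centring. None rose and 1 fell, while 1.23% of all genes rose and 2.1% fell. The 1 was Pdgfra, which went against most of the list. Pdgfra, the PDGF receptor of mesenchyme, read 627, 859 and 410.5 at E16.5 and 1715, 1454 and 1517 at E13.5 (log2 -1.34 ± 0.29, adjusted p = 0.0136). Every E16.5 array lay below every E13.5 array. The collagens of the fibroblast showed no detected change, with differences of 0.26, adjusted p = 0.667, for Col1a1 and 0.03, adjusted p = 0.921, for Col3a1, whose sign turned under median centring. Postn, a matricellular protein of cushions and fibroblasts, had 0.44, adjusted p = 0.311. None of 16 fibrillar collagens and none of 16 basement membrane genes was called. Of 29 elastic fibre and matricellular genes, 2 fell, against 2.1% of all genes. Fibronectin Fn1 fell by a log2 of 0.38 (adjusted p = 0.0396) and the TGF-beta binding protein Ltbp1 by 0.66 (adjusted p = 0.0442). Without the third E16.5 array, none of these held.

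Of 24 endothelial and endocardial genes 1 fell, while 2.1% of all genes fell, and the median was 0.07. The 1 was Npr3, the clearance receptor for natriuretic peptides, which the endocardium expresses, at 1841, 1900.2 and 1785 at E16.5 and 2492, 3244 and 2514 at E13.5 (log2 -0.56 ± 0.15, adjusted p = 0.0403). Pecam1, the pan-endothelial adhesion molecule, had a difference of 0.02, adjusted p = 0.949, with a sign that turned under median centring. Of 5 lymphatic genes Pdpn, podoplanin, which epicardium also expresses, fell (-0.45, adjusted p = 0.0452). Of 10 trabecular genes Sema3a, a guidance cue, fell (-0.66, adjusted p = 0.0153), and the trabecular growth factor Bmp10 had 0.00. Hey2, a Notch target of the compact wall, had 0.24 ± 0.55, adjusted p = 0.836. The ventricular factor Irx4 had -0.04 ± 0.82, adjusted p = 0.983.

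No macrophage gene was called among 21, nor any of 4 mast cell, 11 neural, 10 skeletal muscle, 7 liver, 4 brown fat, 2 lymphocyte and 4 sex-linked genes, nor any of 19 immediate early and heat shock genes. Cma1, a chymase of mast cells, came near the threshold, at 288, 311 and 326 at E16.5 and 221, 134 and 139.6 at E13.5 (log2 0.87 ± 0.25, adjusted p = 0.0532), as did S100a8, a myeloid calcium-binding protein (1.54, adjusted p = 0.06). Ifitm3, an interferon-induced membrane protein, rose (0.59, adjusted p = 0.0422). It was the 1 called of 17 MHC, complement and interferon genes, while 3.32% of all genes were called. Mast cell genes summed to between 1513 and 1563 at E16.5 and between 1141 and 1408 at E13.5. The liver genes had a median of 1.15, with the second E16.5 array far above the rest, and without that array 73 genes were higher and 162 lower, against 159 and 272 with all arrays. The 10 skeletal muscle genes summed to between 13441 and 14931 at E16.5 and between 5726 and 12452 at E13.5, without overlap. Most of that sum was Ckm, which heart muscle also makes, and the median difference was -0.03. Myod1, a factor that sets skeletal muscle fate, read 198, 180.3 and 150.3 at E16.5 and 96.3, 104 and 131 at E13.5, higher on every E16.5 array but not called (log2 0.60 ± 0.28, adjusted p = 0.211). Myog, a factor of skeletal muscle differentiation, read 97.4, 71.4 and 53.2 at E16.5 and 89.7, 74.0 and 104 at E13.5, with groups that overlapped. The part of skeletal muscle in the rises was not tested.

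The other large falls were of scattered function. Gramd1c, which encodes a sterol transfer protein, read 37.4, 80.6 and 36.1 at E16.5, against 199, 352 and 281 at E13.5. All E16.5 arrays were far lower, and it had the smallest adjusted p of any gene (log2 -2.13 ± 0.26, adjusted p = 9.87e-05). Plcb3, a phospholipase C, read 56.7, 64.3 and 53.1 at E16.5 and 149, 270.2 and 232 at E13.5 (log2 -1.61 ± 0.26, adjusted p = 0.00186). Both kept their calls with any array left out, as did B3galnt1, a glycosphingolipid enzyme (-1.07, adjusted p = 0.00125), and Ttc13 (-0.69, adjusted p = 0.000965). Npnt, the matrix protein nephronectin, read 277, 355 and 212 at E16.5, against 689.6, 1326 and 966 at E13.5 (log2 -1.74 ± 0.30, adjusted p = 0.00342). Its lack of overlap between the days was a condition for a place among the 15 largest falls. The remaining members of the 15 largest falls were Lat (-1.92), an adaptor of T cell receptor signalling, the imprinting factor Zfp57 (-1.85), the mismatch repair gene Pms1 (-1.82), the meiotic cohesin Rec8 (-1.73), the transcription factors Myrf (-1.69) and Batf3 (-1.65), and the transmembrane collagen Col13a1 (-1.60), with adjusted p between 0.00851 and 0.0479.

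The neighbouring days place these changes within the period from E12.5 to E18.5. Set against E14.5 in place of E13.5, the E16.5 ventricles had 144 probe sets higher and 124 lower, and between E14.5 and E13.5 33 were higher and 1 lower. Kcnip2 read 40.0, 87.0 and 48.3 at E12.5, 200.0, 29.1 and 56.0 at E14.5 and 1990.5, 2143 and 1849.6 at E18.5. It was low on most arrays up to E14.5 and had its steep rise after that (E16.5 minus E14.5 3.02 ± 0.58, adjusted p = 0.0114). Myom2 read 56.6, 182 and 96.9 at E12.5, 660.4, 171 and 300.3 at E14.5 and 5840.1, 5915 and 5360.2 at E18.5. Ckmt2 read 389.8, 571 and 281 at E12.5, 869.6, 525 and 896 at E14.5 and 7494, 8386 and 7131 at E18.5. Both genes were highest at E18.5, where their 3 arrays lay close together.

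Some falls were followed over the same days. Hba-x read 12975, 8222 and 17079.7 at E12.5, 2177, 11474 and 6378 at E14.5 and 38.0, 78.5 and 146 at E18.5, and its difference from E14.5 to E16.5 was -3.35 ± 0.50 (adjusted p = 0.00221). Tnnt1 read 4106, 5954 and 4088 at E12.5, 3699, 5207 and 5023 at E14.5 and 1009.7, 1056 and 965 at E18.5. Its arrays overlapped from E12.5 to E14.5 and lay lower at E16.5 and E18.5. Hmga2 was at 5008, 3058 and 6125 at E12.5, 1255, 3514 and 2409 at E14.5 and 521, 481 and 506 at E18.5, with a lower geometric mean on each later day, though neither the step from E13.5 to E14.5 nor those after it passed on their own. Relt read 520.5, 717 and 620.3 at E14.5, above all its E13.5 arrays (E14.5 minus E13.5 1.20 ± 0.27, adjusted p = 0.0508). Plcb3 rose again to 252, 148 and 183 at E18.5, higher than at E16.5 by a log2 of 1.47 ± 0.26 (adjusted p = 0.01). The E13.5 arrays and the E16.5 arrays are shared between these steps, so that the steps are not independent of the comparison of E16.5 with E13.5.

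**Figure D4:**
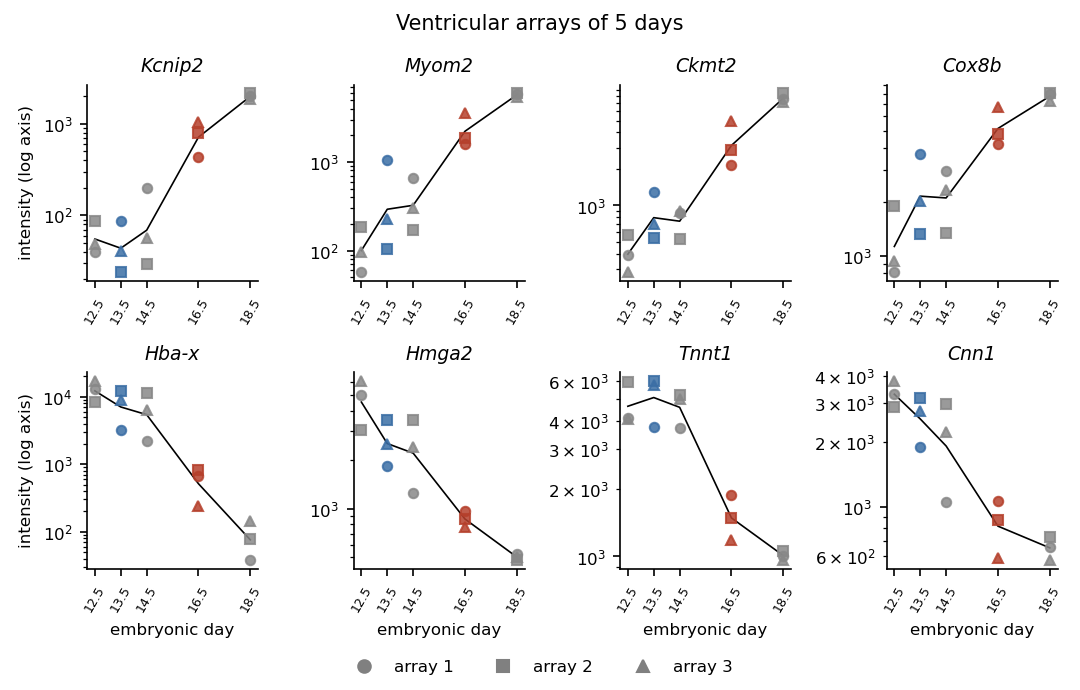
Intensity on each ventricular array (y axis, log scale) against embryonic day (x axis) for 8 genes, with E16.5 in red, E13.5 in blue and the other days in grey. Symbols mark the array number, and the line joins geometric means. Kcnip2 and Tnnt1 change mainly after E14.5, and the first E13.5 and E14.5 arrays often lie toward the later days.

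The same days were compared in atria, with 3 arrays each, to see which changes were larger in ventricles. The test of the difference between chambers called 0 probe sets with limma, while 2790 had an unadjusted p under 0.05. The lowest adjusted p was 0.0507, for Sfrp1, Cd44 and Pofut1, genes named after their values were seen except Sfrp1. Sfrp1 read 3179.8, 3619 and 3591 in E16.5 atria and 3562, 3008 and 3397 in E13.5 atria. The atrial arrays of both days overlapped, with a difference of 0.06 ± 0.17, and the difference in ventricles minus that in atria was -1.37 ± 0.23. Cd44, a hyaluronan receptor, had -0.65 ± 0.14 in ventricles and 0.44 ± 0.14 in atria. Pofut1, the enzyme that adds fucose to Notch receptors, had 0.59 ± 0.14 in ventricles and -0.47 ± 0.14 in atria.

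Values of the leading genes are set side by side in the plot of ventricle and atrium. Kcnip2 had a difference of 3.55 ± 0.58 in ventricles and 1.06 ± 0.58 in atria (test of the difference, adjusted p = 0.307). Tnnt1 had -1.76 ± 0.28 in ventricles and -0.31 ± 0.28 in atria (adjusted p = 0.213). For Cnn1 the values were -1.61 ± 0.24 in ventricles and -0.26 ± 0.24 in atria (adjusted p = 0.182). Each was further from 0 in ventricles, which the choice of these genes by their ventricular change favours. None of these differences between chambers passed. In atria Cavin4 had 2.02 ± 0.49, and the ventricular difference minus the atrial one was 0.27 ± 0.69 (adjusted p = 0.931). For Hmga2 these were -1.77 ± 0.41 and 0.24 ± 0.58 (adjusted p = 0.926). Hba-x had -1.96 ± 0.50 in atria, a difference from ventricles of -1.77 ± 0.71 (adjusted p = 0.387).

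**Figure D5:**
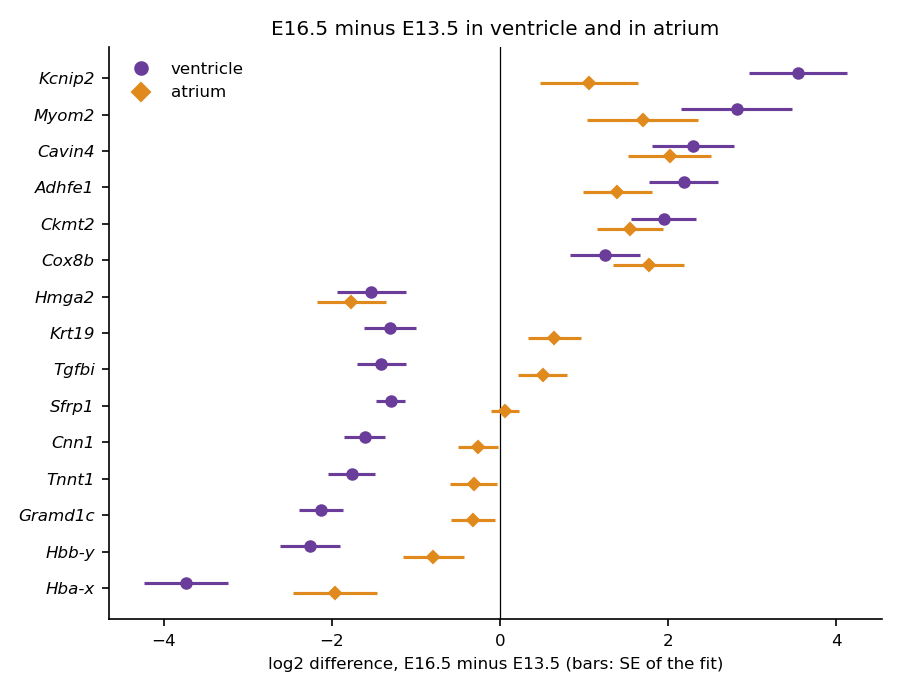
Log2 difference between E16.5 and E13.5 (x axis) in ventricles (purple circles) and atria (orange diamonds) for 15 genes (y axis), with bars for the SE of the fit. Sfrp1, Tgfbi and Krt19 lie at -1.30, -1.41 and -1.31 in ventricles and at 0.06, 0.51 and 0.65 in atria, and the test of the difference called no gene.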

How the data were processed

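The deposited values are intensities on a linear scale, 1 for each of 45101 probe sets on each of 36 arrays, with a 2% trimmed mean of 500.0 on every array, as the values show. The sources used here do not say how scans became intensities. Leaving out 64 controls, 34945 of 45037 probe sets had 1 gene symbol in the platform annotation, and 932 with several and 9160 with none name no gene. Values were taken to log2 after adding 17 to each deposited intensity. The test took 27256 probe sets with 3 or more of the 36 arrays above 171.8, which is the overall median, and for each of 12973 genes the brightest probe set stood for it. R 4.3.3 and limma 3.58.1 fitted 12 group means of 3 arrays each, with 24 residual and 5.7 prior degrees of freedom and an intensity trend, and p-values were two-sided and adjusted by the Benjamini-Hochberg method over 27256 probe sets. No column lacked a sample, no arrays held the same values, and the number of arrays limits the precision.

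The comparison, the 45 gene lists (841 members, some in several lists) and the genes of interest were chosen with earlier results of these data known. List genes without a probe set of their own, such as Cpt1b and Ccnb1, were not analysed here. Named were the 15 largest called differences in each direction without overlap, up to 6 called members of a list, up to 8 called differences between chambers each way (there were none) and a set of heart genes; further list members and other genes were named after their values were seen. Alternatives changed scaling, pseudocount, filter, arrays in the fit, variance model, replicate block and probe set of a gene, and left out each array. The code was tested on simulated data. Promoters are from RefSeq.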

Additional observations from a re-analysis of the deposited data

How the results depend on the processing

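The main counts were 346 probe sets higher and 466 lower. They moved to 113 and 1040 under median centring, to 220 and 286 without a filter on low values, to 142 and 195 with only the 30 chamber arrays, to 1855 and 2096 with array weights, to 223 and 262 with only the 15 ventricular arrays, and to 144 and 124 with E14.5 in place of E13.5. The ventricular arrays alone, E14.5 as the earlier day and the pair of arrays left out together were chosen after seeing the data. With each array left out in turn the counts ran between 3 and 550 higher and between 14 and 635 lower. They were within 1.5 times the main counts under quantile normalization (377 and 539), pseudocounts of 1 (319 and 473) and 68 (389 and 447), the strict filter (315 and 593), only the compared arrays (392 and 452), no intensity trend (297 and 348), the replicate block (263 and 388), and without the first E13.5 array and the second E16.5 array together (297 and 453). The difference between chambers called 0 probe sets in the main setting, 6 with a pseudocount of 1, 1 without a filter, 4 with the strict filter, 1 with only the compared arrays, 38 with array weights and 2 with the replicate block, and between 0 and 21 with 1 array left out. Array numbers showed no pairing of E16.5 with E13.5 ventricles. Deviations of arrays with the same number correlated at 0, 0.09 and 0 (other pairs -0.12 to 0.11). With the replicate as a block 116 genes were higher and 226 lower. Whether ventricle and atrium arrays of the same day and number came from the same hearts is not stated. The test between chambers did not pair them.

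All 431 called genes kept their sign in the settings that tested them, except with all probe sets of a gene averaged, where 426 did. Small differences of genes that were not called turned their sign. Under median centring these were Acta2 (-0.12), Actc1 (-0.11), Atp2a2 (-0.09), Col3a1 (-0.13), Gata4 (-0.02), Myh6 (-0.11), Myh7 (-0.10), Myl3 (-0.08), Myom1 (-0.15), Nppb (-0.11), Pecam1 (-0.14), Sox9 (-0.15), Tnni1 (-0.10), Tnnt2 (-0.15) and Ttn (-0.15). Under quantile normalization they were Sox9 (-0.08) and Tnnt2 (-0.02). With all probe sets of a gene averaged they were Col3a1 (-0.11), Igf2bp3 (-0.15) and Sox9 (-0.18). Without the first E13.5 and the second E16.5 array they were Igf2 (0.05), Nppb (-0.02) and Pecam1 (-0.01). With 1 array left out Actc1 between -0.02 and 0.11, Col3a1 between -0.11 and 0.17, Igf2 between -0.07 and 0.04, Irx4 between -0.11 and 0.01, Kcnd2 between -0.14 and 0.03, Krt8 between -0.45 and 0.09, Myh6 between -0.09 and 0.13, Myh7 between -0.01 and 0.11, Myom1 between -0.05 and 0.05, Nppb between -0.15 and 0.18, Pecam1 between -0.04 and 0.10, Sox9 between -0.07 and 0.10, Tnni1 between -0.01 and 0.12, Tnnt2 between -0.03 and 0.05 and Ttn between -0.02 and 0.05 crossed 0. 
The causes of these moves were not tested. The number of arrays, 3 a day, and dim signals near the filter limit what can be detected.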

Other observations

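Some calls fell into families of like symbols that no list held, picked because they held calls and so given with no test. Over all genes 1.23% were higher and 2.1% lower, and because of that choice the counts cannot be read against these shares. Of 14 measured genes of the Snhg family and Gas5, hosts of small nucleolar RNAs, 4 were lower and none higher, with a median log2 difference of -0.19. Of 8 Snrp genes, which encode proteins of the spliceosome, 3 were lower, and all 8 differences lay between -0.57 and -0.09. Of 3 Sall genes, zinc finger factors of embryonic tissue, 2 were lower, and of 5 glypican genes (Gpc) 2 were lower. In the other direction, 2 of 18 aldehyde dehydrogenase genes (Aldh) and 2 of 7 glutathione transferases of the mu class (Gstm) were higher, and the Gstm genes had a median of 0.48.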
